A study of Mus musculus with 6 samples.

Results

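The 10 genes described here build the chromosome axis of meiosis and carry out its recombination: Sycp1, Sycp2, Sycp3, Syce1, Syce2 and Hormad1 of the synaptonemal complex and axis, Smc1b, Rec8 and Stag3 of meiotic cohesin, and the recombinase gene Dmc1. They were chosen by symbol, each was found among the 27098 genes of the deposited count table, and all 10 passed the filter on low counts that left 17475 genes for testing. Bulk RNA was sequenced from cultured mouse ovaries of the third day after birth. The PRP group (3 libraries) was kept for 2 h in DMEM/F12 medium with 2% platelet-rich plasma (PRP), a plasma fraction rich in platelets and their growth factors. The control group (3 libraries) was kept for the same time in DMEM/F12 medium without PRP. Both media held antibiotics. According to the series text the PRP was human and thrombin was used to activate it; a control with thrombin alone is not named. The labels give no strain or genotype and do not say whether a library came from 1 animal, a litter or a pool, so that p-values measure the spread between these libraries, which may be technical. In bulk tissue, fewer cells of a type and less RNA per cell cannot be told apart.

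In the fetal ovary, germ cells enter meiotic prophase, pair their homologous chromosomes along the synaptonemal complex and repair programmed DNA breaks as crossovers. Around birth oocytes take this complex apart, enter the long dictyate arrest and are enclosed in primordial follicles, and transcripts of many prophase genes decline. Cohesin rings loaded before this arrest hold sister chromatids together until the oocyte matures. The deposited annotation gave a synaptonemal complex term to 9 of the 10 genes and a cohesin term to 3, and every member had at least 1 term of meiosis, the synaptonemal complex or cohesin.

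Library totals ran from 36037111 to 36568367 counts in PRP and from 35568000 to 35825931 counts in control, of which the 10 genes took 0.044% to 0.0568%. Control 3 stood apart in genes of other kinds: red blood cell markers summed to 1309 CPM (counts scaled to a common library size, after correction by the trimmed mean of M values) in that library and to between 108 and 225 CPM in the other 5, and interferon-stimulated genes summed to 192 CPM against 63.6 to 85.1 CPM. All 16 oocyte markers checked were detected and tested; none passed in the unpaired test, and 2 passed, higher in PRP, with the replicate number as a block (Zp2 and Zp3). That blocked fit called 0.12% of all genes, and 0 genes when it used limma-voom or left out robust estimation. The summed marker level was 5817, 3642 and 5336 CPM in PRP 1, 2 and 3, against 5102, 3290 and 4512 CPM in control 1, 2 and 3.

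Promoters are shown for 4 members that differ in level and evenness: the abundant and even Sycp3, the uneven Sycp1 and Hormad1, and the scarce Dmc1. The sequences come from RefSeq (GRCm38.p6), which held 12 promoter entries for the 10 genes. They cover up to 250 bases before the start site, without bases that a GENCODE exon covers or that lie within the gene as RefSeq annotates it, and read 5′ to 3′ on the strand of the gene. Capitals mark CACGTG, the E-box bound by MGA with MAX, or TCCCGC, a motif of E2F6, on either strand. E2F6 and MGA belong to a Polycomb complex that keeps germline genes silent in other cells. The windows are chr10:88459337-88459568 (plus strand), chr3:102936101-102936350 (minus strand), chr3:95559427-95559676 (plus strand) and chr15:79605160-79605359 (minus strand).
Sycp3 promoter: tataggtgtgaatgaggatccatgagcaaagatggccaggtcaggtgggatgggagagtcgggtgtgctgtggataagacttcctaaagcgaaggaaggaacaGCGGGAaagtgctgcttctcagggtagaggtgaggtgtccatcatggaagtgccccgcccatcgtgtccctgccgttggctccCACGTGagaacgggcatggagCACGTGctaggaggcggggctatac
Sycp1 promoter: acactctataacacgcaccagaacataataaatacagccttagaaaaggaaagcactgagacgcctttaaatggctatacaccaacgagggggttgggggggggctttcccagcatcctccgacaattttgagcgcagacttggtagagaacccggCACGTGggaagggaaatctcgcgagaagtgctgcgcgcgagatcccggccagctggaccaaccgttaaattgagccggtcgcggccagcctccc
Hormad1 promoter: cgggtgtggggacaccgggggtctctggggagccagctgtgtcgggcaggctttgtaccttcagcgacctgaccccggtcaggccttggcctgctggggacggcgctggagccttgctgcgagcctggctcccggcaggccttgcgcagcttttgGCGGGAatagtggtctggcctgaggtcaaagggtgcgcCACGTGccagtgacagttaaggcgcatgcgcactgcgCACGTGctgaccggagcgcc
Dmc1 promoter: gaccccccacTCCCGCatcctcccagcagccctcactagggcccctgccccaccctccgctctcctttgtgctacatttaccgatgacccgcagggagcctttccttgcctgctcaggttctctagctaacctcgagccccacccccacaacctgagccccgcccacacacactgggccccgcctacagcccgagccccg

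Over the 250 bases before the start, TCCCGC was present on either strand in 8 of the 12 member entries, from 6 genes (Sycp3, Syce2, Hormad1, Rec8, Dmc1 and Smc1b), and in 16.9% of all 32851 promoter entries. CACGTG was present in 6 of the 12 entries, from 5 genes (Sycp3, Sycp1, Hormad1, Stag3 and Syce2), and in 6.02% of all entries. The motif CNCCTCAG of STRA8, the factor that starts meiosis, was found in 1 entry, a second start of Syce2 where it overlaps a TCCCGC match, and in 6.42% of all entries. Member entries held 7 to 26 CpG dinucleotides, and all 12 held more than the median of 6 over all entries. Some genes have several entries with overlapping windows. Unlike the printed stretches, the windows counted here keep bases that lie within the gene as RefSeq annotates it. The Stag3 window (chr5:138280259-138280508) lies inside the gene (138272514 to 138312397). Windows of Sycp2, Rec8, Dmc1 and the second starts of Syce2 and Hormad1 reach into the gene. These matches describe the letters of the windows, and binding was not measured.

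Levels of the members spanned a wide range. Per kilobase of merged exons, and as mean ± SD over all 6 libraries, Sycp3 stood first with 136 ± 7.3 CPM per kb. Syce2 (34.9 ± 2.6), Smc1b (32.3 ± 3.7) and Syce1 (23.1 ± 4.3 CPM per kb) followed. Sycp1 (11.7 ± 4.3) and Stag3 (6.55 ± 1.93 CPM per kb) lay in the middle. Hormad1 (3.74 ± 1.32), Sycp2 (2.61 ± 0.37), Dmc1 (1.45 ± 0.54) and Rec8 (1.33 ± 0.29 CPM per kb) were lowest. In this order only Sycp3 against Syce2 and Sycp2 against Dmc1 had library ranges that did not overlap. Within each of the 6 libraries Smc1b was also above Syce1, Syce1 above Sycp1, Sycp1 above Stag3 and Stag3 above Hormad1. Syce2 was above Smc1b in 4 libraries, Hormad1 above Sycp2 in 4 and Dmc1 above Rec8 in 5, so that these neighbours did not differ beyond their spread. The genes also differed in how even they were: the highest library exceeded the lowest 1.15-fold in Sycp3, 1.59-fold in Syce1, 1.39-fold in Smc1b, 2.69-fold in Sycp1, 3.21-fold in Hormad1 and 3.31-fold in Dmc1.

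**Figure D1:**
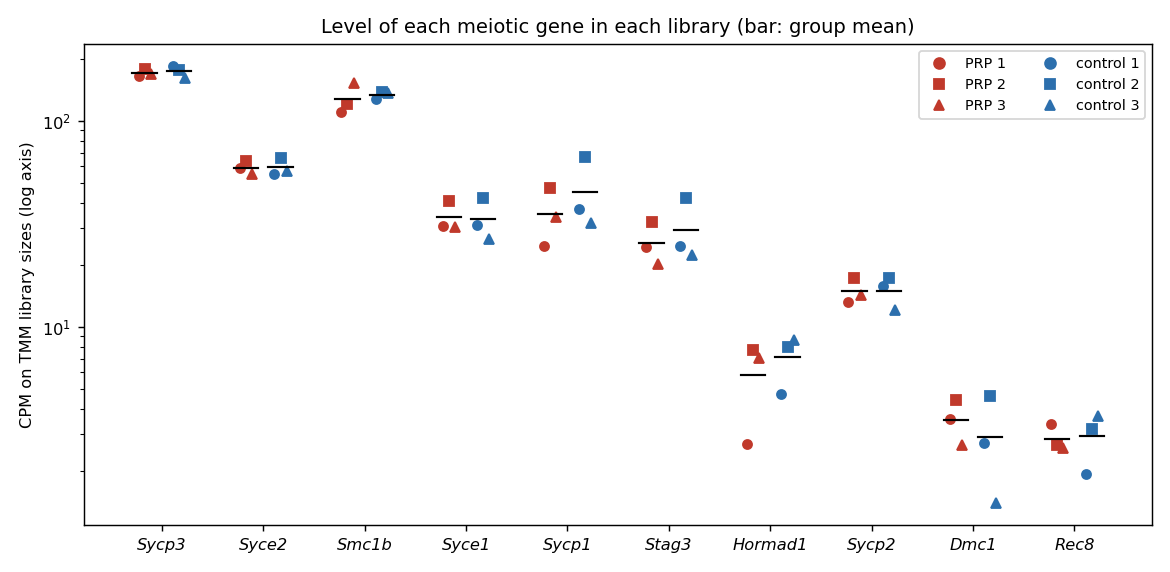
CPM of each member in each library on a log axis, PRP in red and control in blue, with the replicate number as the symbol and the group mean as a bar; genes run from the highest to the lowest level per kilobase. PRP and control points overlap in all 10 genes, and Sycp3 is the most abundant.

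The comparison of PRP with medium alone asks which transcripts of the ovary differ after 2 h. None of the 10 meiotic genes passed the edgeR quasi-likelihood test (Benjamini-Hochberg adjusted p = 0.9998 for each), and PRP and control values overlapped in all 10. Over all 17475 genes tested this fit called 0%, with 557 genes (3.19%) at an unadjusted p below 0.05 and none of the members among them. DESeq2 and limma-voom also called 0 genes, and none of the members passed without control 3 either, where their median log2 fold change was -0.10. Replicate numbers 1 to 3 occur in both groups and pair the libraries by their shared deviations from the group means; with the number as a block, the fit called 21 genes (0.12%) and again none of the members. In that blocked fit 1 of the 10 members, Sycp1, had an unadjusted p below 0.05, against 11.2% of all genes. Log2 fold changes (PRP minus control) ran from -0.36 to 0.28 with a median of -0.03, and 8 of 10 were below 0; over all genes 49.6% were below 0 and the median was 0.00. PRP was lower in all 3 pairs for 2 members, Hormad1 and Stag3, against 16.3% of all genes, and higher in all 3 for 0 members, against 16.8%.

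Sycp3 and Sycp2 form the lateral elements of the synaptonemal complex, and Hormad1 marks unsynapsed axes, where it promotes DNA break formation. Sycp3 (Entrez 20962, GRCm38 chromosome 10, 88459587 to 88473236, plus strand) had 165, 179 and 168 CPM in PRP 1, 2 and 3, against 185, 176 and 161 CPM in control 1, 2 and 3. The groups overlapped fully, and the log2 fold change of -0.03 had a 95% interval of -0.18 to 0.13. Of the merged exon bases of Sycp3, 52.2% are also exon of Chpt1, a phospholipid synthesis gene on the opposite strand, and since the strand setting of the counting is not given, reads of that stretch cannot be assigned to either gene. Chpt1 itself averaged 31.4 ± 2.2 CPM in PRP and 33.9 ± 3.5 CPM in control (SD, n = 3).

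Sycp2 (Entrez 320558, chromosome 2, 178345295 to 178407776, minus strand) had 13.2, 17.2 and 14.3 CPM in PRP, against 15.7, 17.1 and 12.01 CPM in control. Library 2 was the highest of each group, and the log2 fold change was -0.00 (-0.38 to 0.37). Hormad1 (Entrez 67981, chromosome 3, 95559677 to 95587863, plus strand) had 2.69, 7.70 and 7.06 CPM in PRP, against 4.71, 7.997 and 8.63 CPM in control. Its libraries of number 1 were the lowest of both groups, and PRP lay below control in each of the 3 pairs, by most in pair 1. The log2 fold change of Hormad1 was -0.29 (-1.22 to 0.64), -0.36 (-0.75 to 0.02) with the block, and 0.05 without PRP 1. The last value keeps the low control 1 without its partner. Blocked fits without pairs 1, 2 and 3 gave -0.17, -0.53 and -0.40.

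Sycp1 encodes the transverse filament that zips homologous axes together. The gene (Entrez 20957, chromosome 3, 102818499 to 102936100, minus strand) had 24.7, 47.0 and 34.3 CPM in PRP 1, 2 and 3, against 37.2, 66.5 and 32.0 CPM in control 1, 2 and 3. PRP was lower in pairs 1 and 2 and higher in pair 3, with pair differences of -0.59, -0.50 and 0.10 in log2 CPM. Its log2 fold change was -0.36 (-1.23 to 0.52) without and -0.33 (-0.65 to -0.02) with the block, where its unadjusted p was 0.0386 and its edgeR adjusted p 0.414. In the blocked fit without replicate 3 it passed (-0.54, edgeR adjusted p = 0.0346, against 0.0346 to 0.999943 over the 20 alternatives tried for Sycp1). Blocked fits without replicates 1 and 2 gave -0.21 and -0.25. In the unpaired fit without control 2, which keeps PRP 2 without its partner, the value was 0.03.

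Syce1 and Syce2 encode proteins of the central element, which bridges the filaments of Sycp1. Syce1 (Entrez 74075, chromosome 7, 140777229 to 140787854, minus strand) had 30.9, 40.7 and 30.4 CPM in PRP, against 31.3, 42.4 and 26.7 CPM in control. Syce2 (Entrez 71846, chromosome 8, 84872111 to 84887446, plus strand) had 59.1, 63.6 and 55.0 CPM in PRP, against 55.4, 66.0 and 57.3 CPM in control. In both genes library 2 was the highest of each group and the groups overlapped. Their log2 fold changes were 0.02 (-0.40 to 0.45) for Syce1 and -0.01 (-0.21 to 0.19) for Syce2.

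Smc1b, Rec8 and Stag3 encode the meiotic forms of the cohesin ring, its kleisin and its associated subunit. Smc1b (Entrez 140557, chromosome 15, 85064689 to 85131957, minus strand) had 109.7, 121 and 153 CPM in PRP, against 127, 137 and 136 CPM in control. PRP 1 was the lowest and PRP 3 the highest of the 6 libraries, and the log2 fold change was -0.06 (-0.32 to 0.19). Rec8 (Entrez 56739, chromosome 14, 55618002 to 55625395, plus strand) had 3.35, 2.65 and 2.58 CPM in PRP, against 1.92, 3.18 and 3.69 CPM in control. Its pair differences went both ways, and the log2 fold change was -0.04 (-0.71 to 0.64). Stag3 (Entrez 50878, chromosome 5, 138272514 to 138312397, plus strand) had 24.4, 32.2 and 20.2 CPM in PRP, against 24.5, 42.0 and 22.2 CPM in control. PRP was below control in all 3 pairs of Stag3, with a difference of -0.01 log2 CPM in pair 1. Its log2 fold change was -0.21 (-0.86 to 0.45), -0.18 (-0.37 to 0.02) with the block, and 0.13 in the unpaired fit without control 2. That last fit keeps PRP 2, the highest PRP library, without its partner. Blocked fits without pairs 1, 2 and 3 gave -0.26, -0.07 and -0.20.

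Dmc1, the meiosis-specific recombinase that pairs a broken DNA end with the homologous chromosome, was the member with the highest log2 fold change. The gene (Entrez 13404, chromosome 15, 79561497 to 79605159, minus strand) had 3.57, 4.39 and 2.66 CPM in PRP, against 2.73, 4.598 and 1.39 CPM in control. Control 3 lay below all other libraries, and without it the log2 fold change of 0.28 (-0.64 to 1.21) was -0.05. That value keeps PRP 3, the lowest PRP library, without its partner. Blocked fits without pairs 1, 2 and 3 gave 0.39, 0.65 and 0.15. Control 3 held 49 counts of Dmc1, with an exact Poisson 95% interval of 36.3 to 64.8, and control 2 held 165 counts (141 to 192). These intervals cover counting error only. Over the 10 genes, chi-square per degree of freedom among libraries of a group ran from 2.32 to 272, where counting error alone gives about 1; the lowest value was that of Rec8 in PRP and the highest that of Sycp1 in control.

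**Figure D2:**
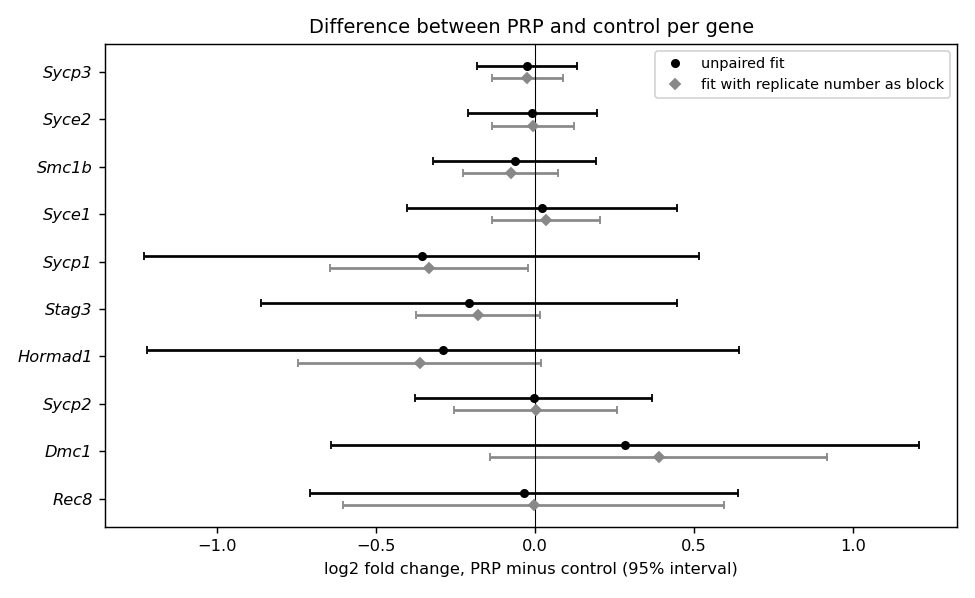
Log2 fold change (PRP minus control) of each member with its 95% interval, black for the unpaired fit and grey for the fit blocked on the replicate number. The unpaired intervals all span 0, and with the block the interval of Sycp1 (-0.65 to -0.02) does not, although its adjusted p was 0.414.

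The summed level of the 10 genes was 436, 516 and 487 CPM in PRP 1, 2 and 3, against 486, 563 and 461 CPM in control 1, 2 and 3. The means were 480 ± 40.1 CPM in PRP and 503 ± 53.4 CPM in control (SD, n = 3), a difference smaller than the spread within either group. Sycp3 and Smc1b made up most of it, and the other 8 genes took 34.2% to 44.3% of the sum in each library. Divided by the summed level of the 16 oocyte markers, the member level was 0.075, 0.142 and 0.0913 in PRP, against 0.0952, 0.171 and 0.102 in control. This ratio was lower in PRP in all 3 pairs, and library 2 of each group was its highest. The oocyte sum itself was higher in PRP in all 3 pairs (log2 differences 0.19, 0.15 and 0.24), whereas the member sum was lower in pairs 1 and 2 and higher in pair 3 (-0.15, -0.13 and 0.08). Padi6, Zp2, Nlrp5 and Zp3, with means of 1554, 763, 633 and 359 CPM over the 6 libraries, were the largest terms of the oocyte sum. Of the 16 markers, 10 were higher in PRP in all 3 pairs and 0 were lower in all 3. Over all genes the shares were 16.8% and 16.3%. The remaining markers, Ddx4, Mael, Dazl, Nobox, Lhx8 and Oosp1, did not have the same sign in all 3 pairs. The ratio of member to oocyte level had a log2 difference between group means of -0.26, 0.06 without control 2 and -0.56 without PRP 2. Those last 2 values each leave a library of number 2, where the ratio was highest, in 1 group only. Within pairs 1, 2 and 3 the log2 differences of the ratio were -0.34, -0.27 and -0.16.

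The members varied with the replicate number more than with the treatment. The number accounted for a median of 74.8% of each gene's variance in log2 CPM and the treatment for 4.44%, against medians of 55.7% and 11.3% over all 17475 genes. The number has 2 degrees of freedom in this split and the treatment 1, so noise alone gives the number the larger share. In Rec8 the number took 14.3% and the remainder of the split 85.7%. A test of the number in the blocked edgeR fit, chosen after seeing the data, called 5 of the 10 members: Stag3 (adjusted p = 0.000425), Syce1 (0.00316), Hormad1 (0.0048), Sycp1 (0.0202) and Dmc1 (0.0431). The same test called 12.6% of all genes. Dmc1 did not pass without robust estimation, where 4 members passed. Averaged over both groups, Sycp1 had 56.7 CPM in libraries of number 2, 31 CPM in number 1 and 33.1 CPM in number 3, and Stag3 had 37.1, 24.5 and 21.2 CPM in the same order. Hormad1 differed through number 1, with 3.7 CPM against 7.85 CPM in each of the others. Sycp3 (adjusted p = 0.455), Smc1b (0.089), Sycp2 (0.187), Syce2 (0.127) and Rec8 (0.873) did not pass. Without the libraries of number 2, Hormad1 alone passed, with 3.02% of all genes. The labels do not say what the number stands for.

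Both libraries of number 2 lay above the other 4 in 6 of the 10 members (Sycp1, Sycp2, Syce1, Syce2, Stag3 and Dmc1) and below them in 0; over all genes the shares were 13.7% above and 14.2% below. This description was chosen after the values were seen. In Sycp1 the mean of number 2 was 1.77-fold that of the others, in Dmc1 1.74-fold and in Stag3 1.62-fold, whereas Sycp3 was at 1.05-fold and Smc1b at 0.983-fold. Of the 16 oocyte markers, 9 lay below the other 4 libraries in both libraries of number 2, among them the zona pellucida genes Zp1, Zp2 and Zp3 (0.521-, 0.662- and 0.543-fold), and 3 lay above (Dazl, Figla and Sohlh1). Ddx4, a germ cell RNA helicase, was at 0.936-fold. The summed level of 8 stromal markers was 6273, 5052 and 6221 CPM in PRP, against 5345, 4710 and 5956 CPM in control, also lowest in number 2. The number was called for all 8 of them, against 12.6% of all genes, and for 0 without the libraries of number 2. Both libraries of number 2 lay below the other 4 in 4 of these 8. Surface epithelial markers summed to 434, 528 and 499 CPM in PRP and 408, 455 and 431 CPM in control, highest in number 2. Both libraries of number 2 lay above the other 4 in 0 of these 7 markers (13.7% of all genes) and below in 1 (14.2% of all genes). Endothelial and leukocyte sums were lowest in number 2 of each group, and granulosa sums in PRP 1 and control 2. The part of these markers in the pattern of the members was not tested.

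**Figure D3:**
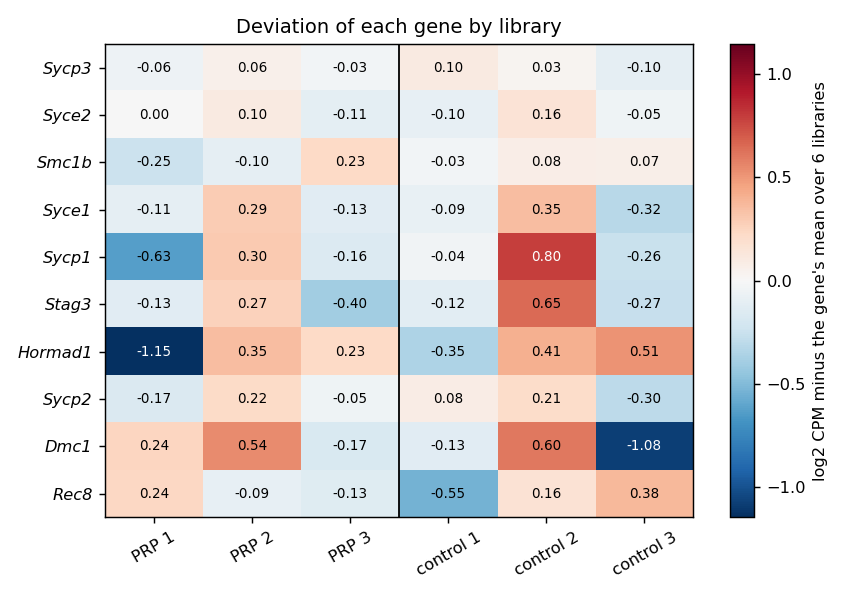
Log2 CPM of each member in each library minus the gene's mean over the 6 libraries, PRP on the left and control on the right. Most genes are red, above their mean, in the columns of number 2, up to 0.80 for Sycp1 in control 2, while Sycp3 lies between -0.10 and 0.10 throughout.

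**Figure D4:**
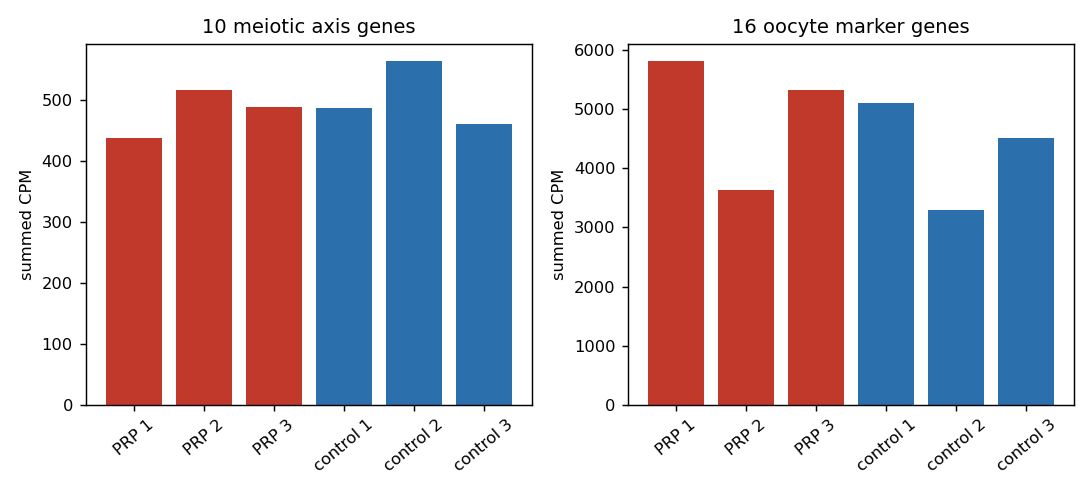
Summed CPM per library of the 10 meiotic genes (left) and of the 16 oocyte markers (right), PRP in red and control in blue, with bars from 0. Library 2 of each group is the highest of its group on the left (516 and 563 CPM) and the lowest on the right (3642 and 3290 CPM).

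The wider machinery of meiosis was read from 6 lists with 50 genes, all in the table, of which 48 could be tested. None passed in either direction without or with the block, 0 had an unadjusted p below 0.05 without the block (3.19% of all genes), and 3 had with it (11.2% of all genes). Their median log2 fold change was -0.02, with 25 below and 23 above 0, beside 0.00 and 49.6% below 0 for all genes. Among further axis and synaptonemal complex genes, Sgo2a, which shields cohesin at centromeres, averaged 24.5 ± 1.7 CPM in PRP and 26.9 ± 2.3 CPM in control, and Trip13, an ATPase that strips HORMAD proteins from synapsed axes, 18.5 ± 1.9 and 18.1 ± 1.1 CPM (SD, n = 3). Of that list 6 of 8 genes lay lower in PRP, with a median of -0.19. Among DNA break genes (9 tested, median 0.03), Zcwpw1, a reader of the marks that Prdm9 writes, averaged 72.3 ± 5.7 CPM in PRP and 70.8 ± 7.5 CPM in control, and Prdm9, which marks recombination sites, 12 ± 1.2 and 12.3 ± 2.4 CPM.

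Strand exchange genes (10 tested, median 0.01) included Sfr1 and Swi5, which act together in strand exchange, with log2 fold changes of 0.02 ± 0.09 and 0.08 ± 0.06 (SE). Crossover genes (11 tested, median -0.03) included Mlh3, a mismatch repair protein at crossovers, with -0.16 ± 0.13, and Tex11, a further crossover protein, with -0.08 ± 0.33. Telomere attachment genes (6 tested, median -0.01) included the nuclear envelope gene Sun1 (-0.04 ± 0.07) and Terb1 (0.03 ± 0.15), and meiotic entry genes (4 tested, median -0.03) included Ythdc2, an RNA helicase needed to enter prophase (-0.15 ± 0.10), and Meiosin, the partner of STRA8 (0.09 ± 0.30). The replicate number was called for 10 of the 48 genes (12.6% of all genes), and for 0 without the libraries of number 2. Both libraries of number 2 lay above the others in 20 genes (13.7% of all genes) and below in 2, Kash5 and Meiosin (14.2% of all genes). Named after their values were seen, Meioc was 3.72-fold, Spata22 3.13-fold, Syce3 2.9-fold and Meiob 2.53-fold higher in number 2, at means of 1.46 to 3.77 CPM over all libraries. Meiosin was 0.598-fold.

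General cohesin genes served as a comparison for the meiotic subunits. Of 13 tested, 11 lay lower in PRP (49.6% of all genes) and none passed; their median log2 fold change was -0.08. PRP was lower in all 3 pairs for 7 of the 13, against 16.3% of all genes. Their summed level was 1747 ± 48.3 CPM in PRP and 1845 ± 54.4 CPM in control (SD, n = 3). Rad21, the general kleisin, averaged 281 ± 6.3 CPM in PRP and 289 ± 13.5 CPM in control, with a log2 fold change of -0.04 ± 0.06 (SE). Nipbl, which loads cohesin on DNA, averaged 214 ± 3.1 CPM in PRP and 241 ± 3.5 CPM in control; its log2 fold change was -0.17 ± 0.05 (SE) and its groups did not overlap, as in 9.21% of all genes (unadjusted p = 0.00977, edgeR adjusted p = 0.9998). Wapl, which releases cohesin from DNA and was named after its values were seen, was the other gene of this list without overlap, at 167 ± 9.5 CPM in PRP and 188 ± 4.9 CPM in control (SD, n = 3).

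Set beside its general counterpart in CPM per kb, Smc1b was at 91.2% ± 8.8 of Smc1a in PRP and at 98.8% ± 7.3 in control (SD, n = 3). Stag3 was at 38.1% ± 12.04 of Stag1 in PRP and 42.6% ± 17.01 in control, and at 28.8% ± 7.1 of Stag2 in PRP and 32.4% ± 14.0 in control. Rec8 was at 1.84% ± 0.27 of Rad21 in PRP and 1.84% ± 0.56 in control. Each of these differences between PRP and control was smaller than the larger SD of the pair of groups. The counterparts are expressed by somatic cells as well, so these shares describe the whole ovary.

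**Figure D5:**
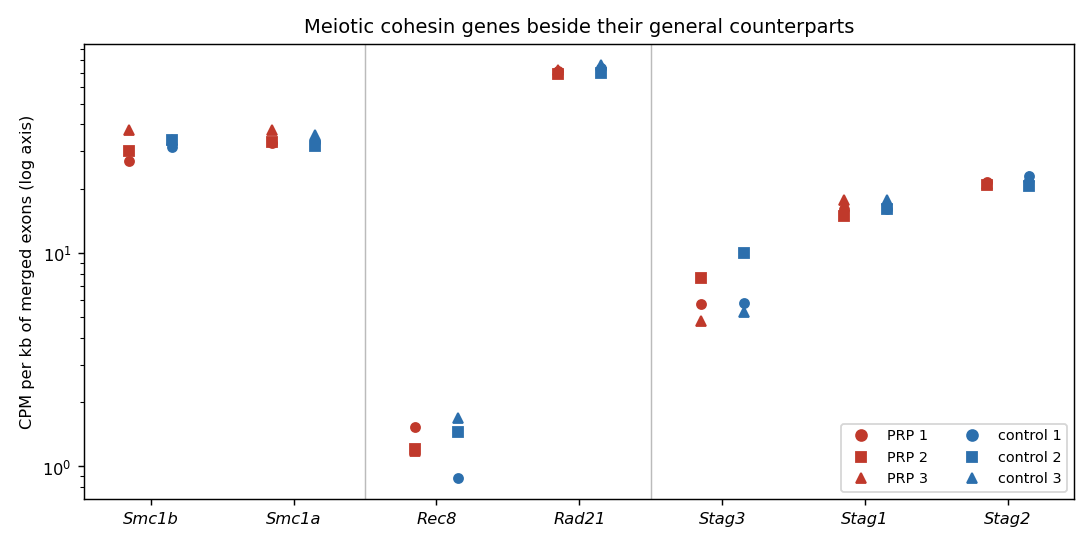
CPM per kb of merged exons, on a log axis, of the meiotic cohesin genes beside their general counterparts in each library, PRP in red left of control in blue. Smc1b lies at the level of Smc1a (27.1 to 37.7 against 31.6 to 37.6 CPM per kb), while Rec8 lies far below Rad21 (0.881 to 1.69 against 69.2 to 76.3 CPM per kb).

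The genes most like the mean profile of the members were sought among 12031 other genes with a mean of 5 CPM or more, by the root mean square difference of centred log2 CPM over the 6 libraries. The nearest were Churc1 (0.0282), Shtn1 (0.0389), Wdr36 (0.0423), Smyd5 (0.0425) and Npm3 (0.0431), against a median of 0.222. None of the genes on the meiotic lists was among these 5, which says little, since only 5 of 12031 genes were named. The measure also counts the size of a swing, so genes with a like but larger swing rank lower. In the member profile itself the deviations were -0.20, 0.19 and -0.07 in PRP 1, 2 and 3, and -0.12, 0.34 and -0.14 in control 1, 2 and 3.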

How the data were processed

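RNA sequencing of 3 PRP and 3 control ovary libraries was analysed from 1 table of raw counts per gene symbol that the authors deposited, with Entrez identifiers. Per the labels' protocols, libraries were made with a SMARTER mRNA kit. The build is GRCm38 (mm10) per the submitters' processing notes. Which aligner, counter, annotation and strand setting were used is not given in the sources used here. Columns were matched to samples by title, and a column whose letters are transposed was read as that of PRP 3, the sample left without one. No 2 libraries agreed within counting noise (Poisson chi-square per degree of freedom 7.01 to 23.5).

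The test was the two-sided quasi-likelihood test of edgeR 4.0.16 (R 4.3.3) with robust estimation, TMM factors and the filterByExpr filter, adjusted by Benjamini-Hochberg over 17475 genes at 0.05. Standard errors were derived from the F statistic, with 95% intervals. CPM were computed on TMM library sizes, with a prior count of 2 for log2 CPM. Libraries of equal number deviated together from their group means (correlations 0.24, 0.40 and 0.33). The correlations of all others were -0.02 or below. These negative values add little, because deviations from a group mean cancel out within the group. From the correlations at equal number, and not from a label, the numbers were taken to pair the libraries. The blocked fit is printed where it bears on a call. Alternatives were DESeq2 1.42.0, limma-voom (limma 3.58.1), other scalings, other filters and fits without single libraries or pairs. The edgeR step was also run on simulated counts. These held no effect of the replicate number, so that run cannot check the fits on data with one.

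Coordinates and promoters came from RefSeq by Entrez identifier, and strands, exons and merged exon lengths from GENCODE M21 of the same build. The members and lists were chosen with earlier results of these data known. Named genes were the members, the 2 genes of highest mean CPM in each wider list and in the general cohesin list, general counterparts of the 3 cohesin members, and the 5 genes nearest the member profile. Outside this rule, and after their values were seen, the text names Meioc, Spata22, Syce3, Meiob, Kash5, Wapl, Krt19 and single oocyte markers, and Chpt1 for its overlap with Sycp3. Oocyte, granulosa, stromal, surface epithelial, endothelial, leukocyte, red blood cell and interferon lists were marker lists, with median log2 fold changes of 0.10, 0.11, 0.16, 0.17, 0.05, 0.13, -1.91 and -1.19 in that order. None of their genes passed without the block. With it Zp2, Zp3 and the surface epithelial marker Krt19 passed, all higher in PRP. No gene passed when the blocked fit used limma-voom or left out robust estimation.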

Additional observations from a re-analysis of the deposited data

How the results depend on the processing

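The absence of calls among the members in the unpaired fit held under 8 other scalings, filters and tools and without each library in turn, and among the 48 wider meiotic genes also in every fit with the block. With the replicate block 21 genes passed over the table, but 0 when that fit used limma-voom or left out robust estimation. Leaving out each pair gave 1 to 19 genes in that fit, and 0 to 1 member, Sycp1 without replicate 3. Of 200 member values under alternatives, 31 changed sign and 168 kept sign and call. Sycp2 turned to 0.00256 with upper-quartile factors, 0.000957 in limma-voom and 0.00149 with the block (robust or not), and Rec8 to 0.00854 in limma-voom. Ranges without 1 library were -0.138 to 0.108 for Sycp2, -0.265 to 0.165 for Rec8, -0.126 to 0.231 for Syce1, -0.0625 to 0.073 for Syce2, -0.079 to 0.0189 for Sycp3, -0.211 to 0.035 for Smc1b, -0.544 to 0.0541 for Hormad1, -0.618 to 0.0308 for Sycp1, -0.405 to 0.134 for Stag3 and -0.04999 to 0.78 for Dmc1. With the block and without 1 pair they were -0.119 to 0.127 for Sycp2, -0.392 to 0.261 for Rec8 (0.129 without pair 2), -0.0392 to 0.084 for Syce1, -0.0585 to 0.019 for Syce2 (0.0164 without pair 2) and -0.0693 to 0.0444 for Sycp3. In these blocked fits Sycp1 ran from -0.545 to -0.211, Hormad1 from -0.531 to -0.173 and Stag3 from -0.264 to -0.0694. Smc1b ran from -0.197 to -0.00942 and Dmc1 from 0.151 to 0.645, and none of these genes changed sign. Fits without 1 library keep its partner of equal number, so number and treatment are not balanced there. Medians without 1 library ran from -0.109 to -0.0349 for the cohesin genes (-0.0966 to -0.0604 with the block) and from -0.0815 to 0.107 for the wider genes, and the member level per oocyte marker level from -0.562 to 0.0573 (log2). The number term called 1 to 4 members without 1 pair and 4, without Dmc1, when robust estimation was left out. No scaling moved the median of all genes by over 0.0102. Per length of the longest coding transcript the level was 147 CPM per kb for Sycp3 and 4.28 for Hormad1, with the same order. The causes were not tested. Totals were 35568000 to 36568367 counts, and counts were 49 to 165 for Dmc1 and 69 to 130 for Rec8.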
